A study of Zea mays with 11 samples.

Results

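In wild-type anthers of the maize inbred line A344, 15 genes stood at least 4-fold higher in replicate 2 than in replicate 1. They were chosen from the count table by the ratio (CPM + 1 in replicate 2)/(CPM + 1 in replicate 1), where CPM is the count scaled to a common library total. A gene also needed at least 20 CPM in A344 replicate 2 and a mean of at least 5 CPM over the 3 *pam1* libraries. Genes Zm00001d027230 to Zm00001d027529 were left out. This gave 15 genes of 43892 that could qualify, in a table of 44474 rows. The levels of A344 replicates 1 and 2 chose the genes, so the difference between them is a description and carries no test. A344 replicate 3 played no part in the choice, and the *pam1* libraries entered it only through their mean.

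The *pam1* group comprised 3 libraries from anthers of *pam1* mutant plants, and the A344 group 3 libraries from wild-type A344 anthers, all labelled as prophase I. Neither the *pam1* allele nor the stage within prophase I is given in the labels, and the labels do not say whether replicates were separate plants. All p-values therefore measure the spread between these libraries, which may be partly technical. Library totals were 2002784 to 2595247 counts in *pam1* and 1918457 to 2420973 counts in A344. A344 replicate 2 was the shallowest, and there 20 CPM corresponded to 38.4 counts.

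Prophase I is the long first phase of meiosis, in which chromosomes condense, pair and recombine. In an anther, meiocytes pass through it beside the tapetum and the outer wall layers, and their transcripts change as the anther grows. PAM1 is a protein with an RNA recognition motif that acts in maize male meiosis, and the study compared its mutant with wild type. The question asked of these genes is where A344 replicate 3 and the *pam1* libraries lie in relation to A344 replicates 1 and 2, as would bear on a stage gradient within the wild-type libraries. Of the 44146 Zm00001d identifiers in the table, 0 were paired with a gene name in the RefSeq gene table used here. The genes are therefore given by identifier, without roles, and neither the tissue label nor the stage was checked against marker genes.

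Taken as a sum, the 15 genes held 374, 414 and 298 CPM in *pam1* replicates 1, 2 and 3, against 185, 1020 and 432 CPM in A344 replicates 1, 2 and 3. All 3 *pam1* libraries lay between A344 replicate 1 and A344 replicate 3, in a narrower range than the A344 libraries. In bulk anthers, fewer cells of a type and less RNA per cell cannot be told apart. Single genes ranged from a mean of 12.2 to 91.3 CPM over the 6 libraries. A344 replicate 1 had 5 to 96 counts per gene, so its low end carried much counting error. The 6 levels of each gene are shown in the plot of levels by library.

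**Figure D1:**
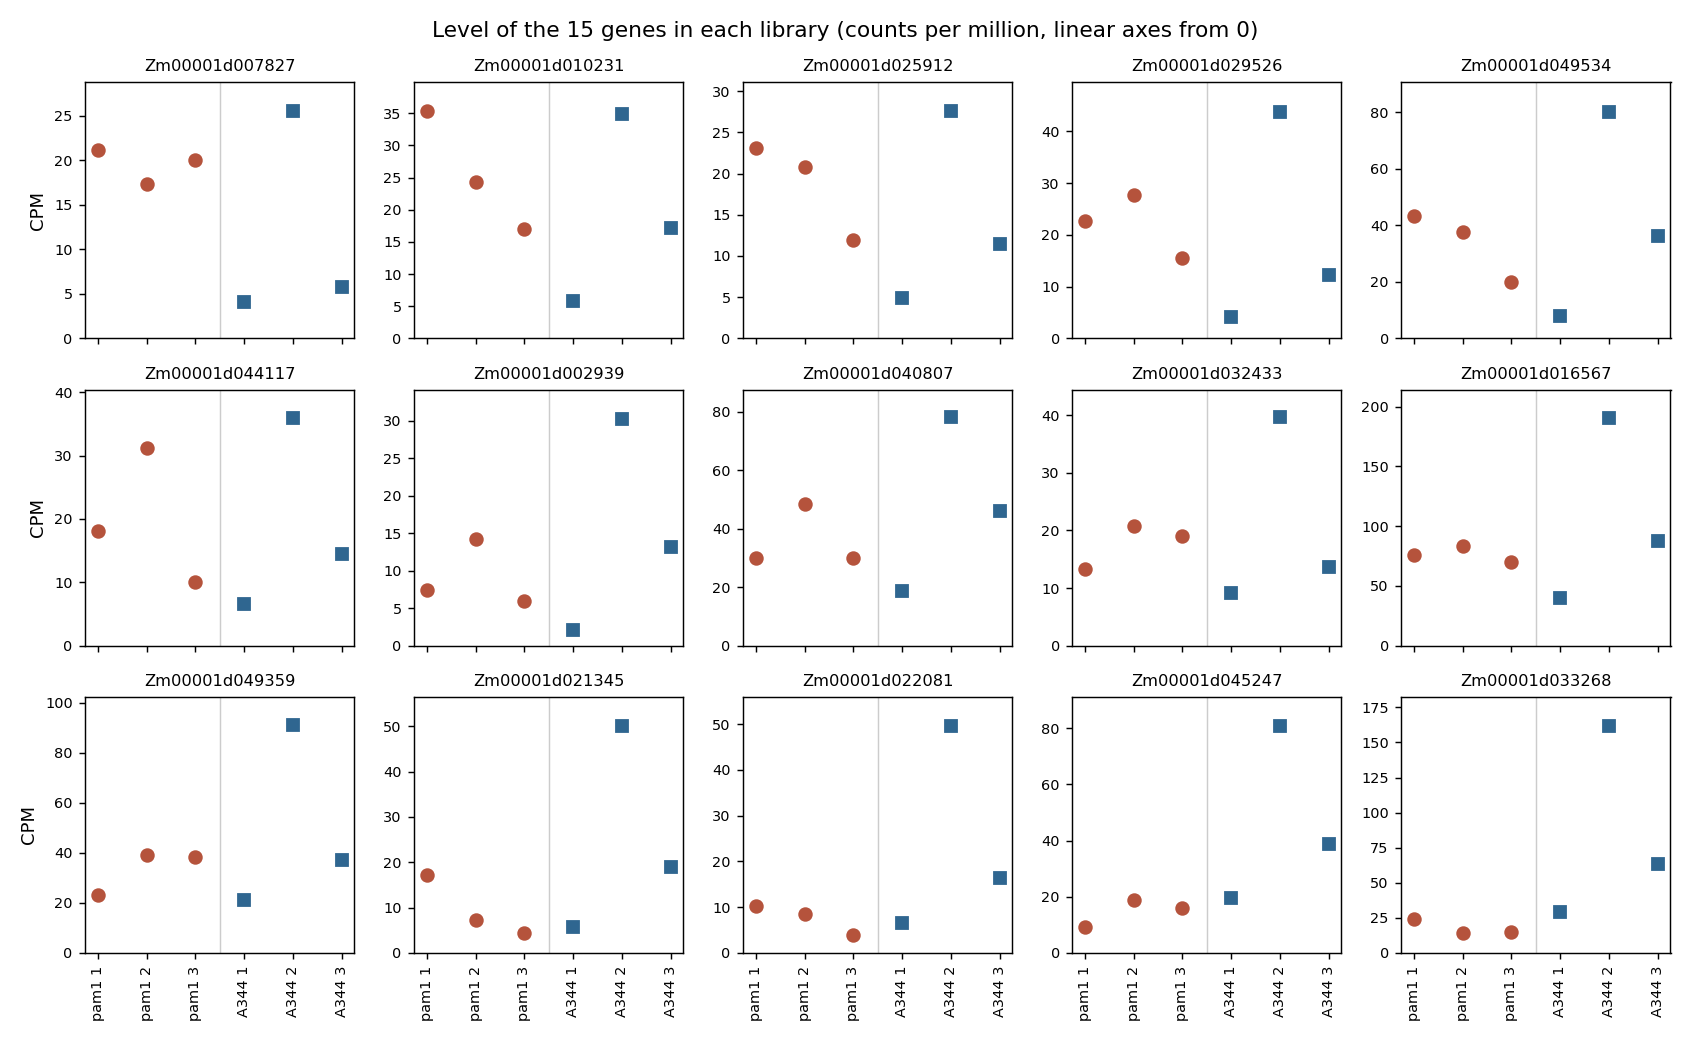
Level of each of the 15 genes in CPM (y axis, linear from 0, its own scale per panel) in the 3 pam1 libraries (circles) and the 3 A344 libraries (squares), 1 point per library. A344 replicate 2 is the highest A344 library and replicate 1 the lowest in every panel, as the choice of genes requires for that pair, and A344 replicate 3 lies between them in 15 of 15 panels.

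The largest ratio was that of Zm00001d002939. It stood at 7.37, 14.3 and 5.99 CPM in *pam1* replicates 1 to 3, against 2.07, 30.2 and 13.2 CPM in A344 replicates 1 to 3. All *pam1* levels lay inside the A344 range, and the highest of them was close to A344 replicate 3. Its ratio was 10.2, the next were 9.19 for Zm00001d049534 and 8.73 for Zm00001d029526, and the other 12 lay between 4.01 and 7.52. The last genes inside the limit were Zm00001d045247 (4.01), Zm00001d032433 (4.03) and Zm00001d040807 (4.04). The first outside it were Zm00001d036701 (3.998), Zm00001d031113 (3.84) and Zm00001d040034 (3.83). In those 3 genes A344 replicate 3 also lay between the others, at 61.2, 11.9 and 11.9 CPM.

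In 10 of the 15 genes, all 3 *pam1* libraries lay between A344 replicates 1 and 2. The highest level of these was in Zm00001d016567, at 76.2, 83.6 and 70.4 CPM in *pam1* replicates 1 to 3, against 39.7, 191 and 87.2 CPM in A344 replicates 1 to 3. Its *pam1* libraries were close together and just under A344 replicate 3. Zm00001d049534 had 43.2, 37.8 and 19.97 CPM in *pam1*, against 7.85, 80.3 and 36.1 CPM in A344. Zm00001d049359 had 23.1, 39.3 and 38.4 CPM in *pam1*, against 21.1, 91.2 and 37.0 CPM in A344. In both genes the *pam1* libraries spread on either side of A344 replicate 3.

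Zm00001d040807 had 29.98, 48.6 and 29.96 CPM in *pam1*, against 18.6, 78.2 and 46.3 CPM in A344. Here *pam1* replicate 2 was close to A344 replicate 3, and the other *pam1* libraries were lower. Zm00001d032433 had 13.3, 20.8 and 19.0 CPM in *pam1*, against 9.09, 39.6 and 13.7 CPM in A344. Zm00001d044117 had 18.2, 31.2 and 9.99 CPM in *pam1*, against 6.61, 36.0 and 14.5 CPM in A344. The *pam1* libraries of Zm00001d044117 covered most of its A344 range.

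Zm00001d029526 and Zm00001d025912 differed from those genes in that every *pam1* library stood above A344 replicate 3. Zm00001d029526 had 22.6, 27.7 and 15.5 CPM in *pam1*, against 4.13, 43.8 and 12.3 CPM in A344. Zm00001d025912 had 23.1, 20.8 and 12.0 CPM in *pam1*, against 4.96, 27.6 and 11.5 CPM in A344. In *pam1* replicate 3 these genes had 31 and 24 counts, against 28 and 26 in A344 replicate 3. So few counts leave the order of that pair of libraries uncertain. The clearest case was Zm00001d007827, at 21.1, 17.3 and 19.97 CPM in *pam1*, against 4.13, 25.5 and 5.73 CPM in A344. There the *pam1* libraries lay together near A344 replicate 2, while A344 replicates 1 and 3 lay together near the low end.

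The other 5 genes had at least 1 *pam1* library outside the A344 pair. Zm00001d010231 had 35.4, 24.3 and 16.98 CPM in *pam1*, against 5.78, 34.9 and 17.2 CPM in A344, so that *pam1* replicate 1 matched A344 replicate 2. It was the only one of the 15 in which A344 replicate 2 was not the highest of the 6 libraries. Zm00001d021345 had 17.2, 7.32 and 4.49 CPM in *pam1*, against 5.78, 50.04 and 18.9 CPM in A344. Zm00001d022081 had 10.3, 8.48 and 3.99 CPM in *pam1*, against 6.61, 49.5 and 16.3 CPM in A344. In both of these, *pam1* replicate 3 fell under A344 replicate 1 and every *pam1* library was under A344 replicate 3.

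In Zm00001d033268 and Zm00001d045247 every *pam1* library lay below every A344 library. The share of all rows with such a separation was not computed, so nothing is read from its count here. Zm00001d033268 had 24.1, 13.9 and 14.98 CPM in *pam1*, against 29.3, 162 and 63.4 CPM in A344. Zm00001d045247 had 9.34, 18.9 and 15.98 CPM in *pam1*, against 19.4, 80.8 and 38.8 CPM in A344. The lowest A344 library, replicate 1, was the A344 library nearest to *pam1* in both. For Zm00001d045247 it had 19.4 CPM, against 18.9 CPM in *pam1* replicate 2 but 9.34 CPM in *pam1* replicate 1. For Zm00001d033268 it had 29.3 CPM, against 24.1 CPM in *pam1* replicate 1 but 13.9 CPM in *pam1* replicate 2.

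A344 replicate 3 lay between replicates 1 and 2 in 15 of the 15 genes. Its place was measured on the log2(CPM + 1) scale, with 0 at A344 replicate 1 and 1 at A344 replicate 2. The median place was 0.47, from 0.16 in Zm00001d007827 and 0.27 in Zm00001d032433 to 0.65 in Zm00001d049534 and 0.66 in Zm00001d002939. As a ratio of CPM, A344 replicate 3 was a median of 2.31 times replicate 1 (1.39 to 6.40), and A344 replicate 2 a median of 2.47 times replicate 3 (1.69 to 4.46). Replicate 1 was chosen for being low and replicate 2 for being high, which pushes both ratios above 1, so they are given as a description. A344 replicate 3 was nearest to replicate 1 in Zm00001d007827 and Zm00001d032433, where it had 13 and 31 counts against 10 and 22 counts in replicate 1.

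A middle place of the third library was common among genes chosen for a gap between A344 replicates 1 and 2. With the same limits but a ratio of 3 to under 4, A344 replicate 3 lay between in 31 of 31 genes, with a median place of 0.49. At a ratio of 2 to under 3 it did so in 170 of 183 genes (92.9%), with a median place of 0.45. Over all 18491 tested rows, chosen on no gap, the share was 40.7%. The *pam1* libraries, too, lay between A344 replicates 1 and 2 in 12, 13 and 11 of the 15 genes for replicates 1, 2 and 3. Their median places were 0.43, 0.66 and 0.36, on either side of the 0.47 of A344 replicate 3.

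**Figure D2:**
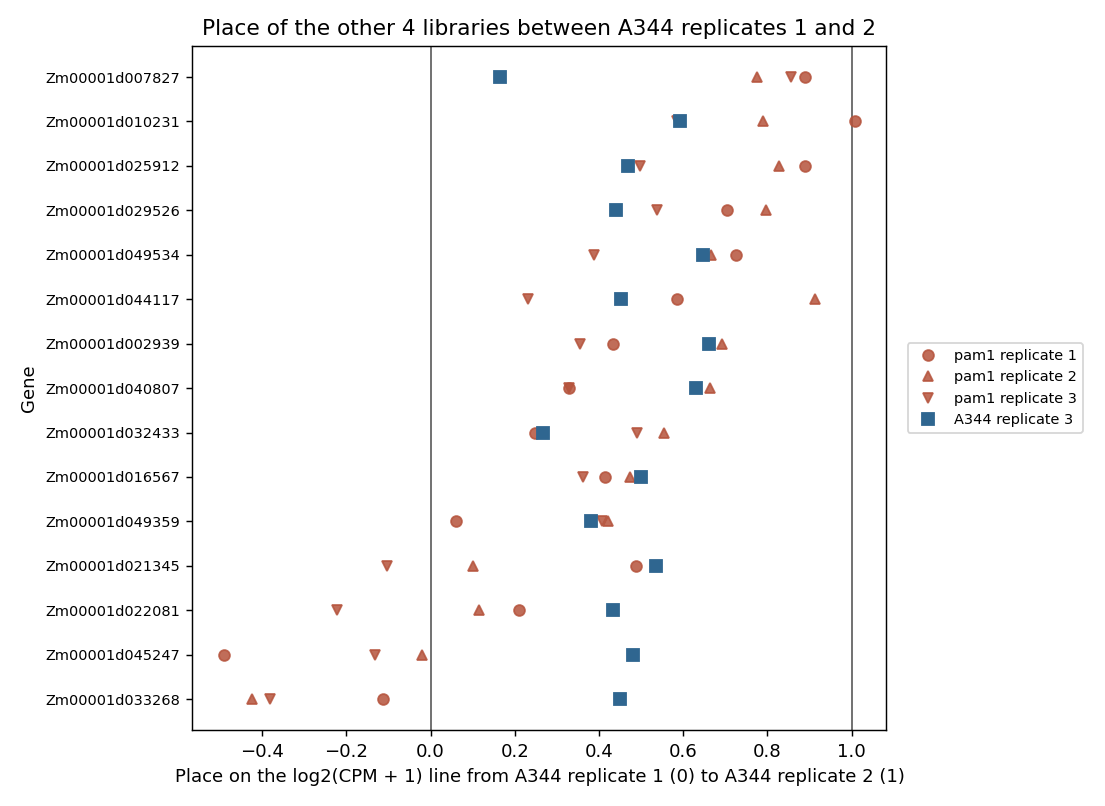
Place of A344 replicate 3 (squares) and of the 3 pam1 libraries (circles and triangles) for each gene, on the log2(CPM + 1) line from A344 replicate 1 (0) to A344 replicate 2 (1). A344 replicate 3 keeps to 0.16 to 0.66, while the pam1 libraries reach from under 0 in Zm00001d033268 and Zm00001d045247 to about 1 in Zm00001d010231.

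In the opposite direction there was little to set beside the 15 genes. Under the same limits, 2 genes were at least 4-fold higher in A344 replicate 1 than in replicate 2. Zm00001d012611 had 12.8, 15.8 and 12.48 CPM in *pam1*, against 22.7, 4.69 and 12.3 CPM in A344, with A344 replicate 3 again in the middle. Zm00001d045392 had 122, 40.8 and 15.98 CPM in *pam1*, against 24.4, 1.56 and 74.0 CPM in A344, with replicate 3 the highest A344 library. At a ratio of 2 to under 3, 121 genes were higher in A344 replicate 1, against 183 in A344 replicate 2. Among those 121 genes A344 replicate 3 lay at a median of 0.71 of the way from replicate 2 up to replicate 1, which is nearer to replicate 1. For the 183 genes high in replicate 2 it lay near the midpoint.

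The same limits were applied to each ordered pair of libraries within a group, with the mean of the other group held to at least 5 CPM. Replicate 2 over replicate 1 of A344 gave the most genes, 15. The other ordered pairs of A344 gave 0 to 9 genes, and those of *pam1* 0 to 9 genes. A344 replicate 3 had genes of its own, with 7 over replicate 1 and 9 over replicate 2. For 5 of those 7 genes A344 replicate 2 lay between, and for 9 of the 9 genes A344 replicate 1 did. Replicate 1 was thus in the middle for the genes that separated replicates 3 and 2, whereas replicate 3 was in the middle for the 15 genes. These counts are descriptions of single pairs of libraries.

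**Figure D3:**
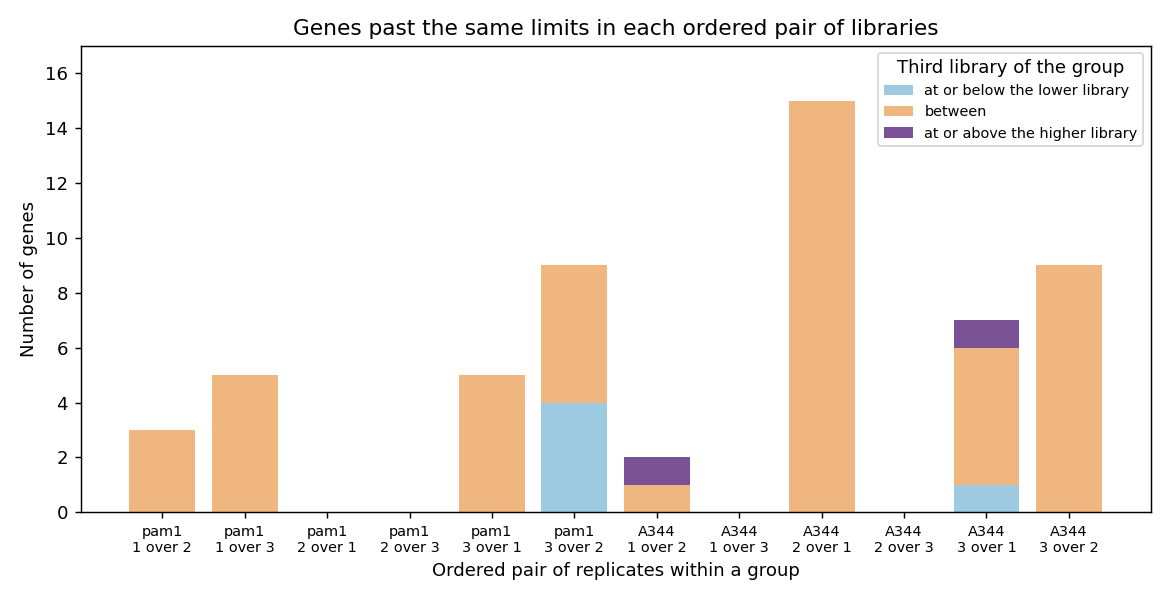
Number of genes past the same limits in each ordered pair of replicates (x axis, pam1 pairs then A344 pairs), with colours for where the third library of the group lay. A344 replicate 2 over 1 has 15 genes, with replicate 3 between in 15, while A344 replicate 3 over 2 and pam1 replicate 3 over 2 have 9 each.

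The *pam1* libraries ordered the 15 genes in their own way. *pam1* replicate 3 was the lowest *pam1* library in 10 genes, replicate 1 in 3 and replicate 2 in 2. *pam1* replicate 2 was the highest in 8 genes, replicate 1 in 7 and replicate 3 in 0. The highest *pam1* library was a median of 1.93 times the lowest (1.19 in Zm00001d016567 to 3.83 in Zm00001d021345). Over all tested rows each *pam1* library was lowest in 30.5% to 36.9% and highest in 32.6% to 33.9%.

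Genes with a smaller gap in A344 had another count. At a ratio of 3 to under 4, *pam1* replicate 1 was the lowest *pam1* library in 23 of 31 genes and the highest in 1. At a ratio of 2 to under 3 it was the lowest in 116 of 183 genes and the highest in 23. In the 15 genes it was the lowest in 3 and the highest in 7.

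Same-numbered libraries of the groups deviated together weakly over all tested rows. The genes with a smaller gap, low in A344 replicate 1, were also mostly low in *pam1* replicate 1. The opposite direction showed this too for replicate 1. Among genes higher in A344 replicate 1 than in replicate 2, *pam1* replicate 1 was often the highest *pam1* library. It was so in 80 of 121 at a ratio of 2 to under 3. At 3 to under 4 this held in 6 of 6, and at 4 or more in 1 of 2. In those genes *pam1* replicate 2 was the lowest in 39 of 121, 0 of 6 and 0 of 2. For *pam1* replicate 3 these counts were 71, 6 and 2. Among genes higher in A344 replicate 2, *pam1* replicate 2 was the highest in 90 of 183, 22 of 31 and 8 of 15. Across the 18491 tested rows the log2(CPM + 1) difference of A344 replicate 2 minus 1 correlated weakly with that of *pam1* replicate 2 minus 1 (Pearson r = 0.13), of 3 minus 1 (0.13) and of 3 minus 2 (0.01), where rows are not independent replicates and the first and second of these share *pam1* replicate 1. The 15 genes had *pam1* replicate 1 lowest in a smaller share, 3 of 15, and this difference from the other genes was not tested.

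**Figure D4:**
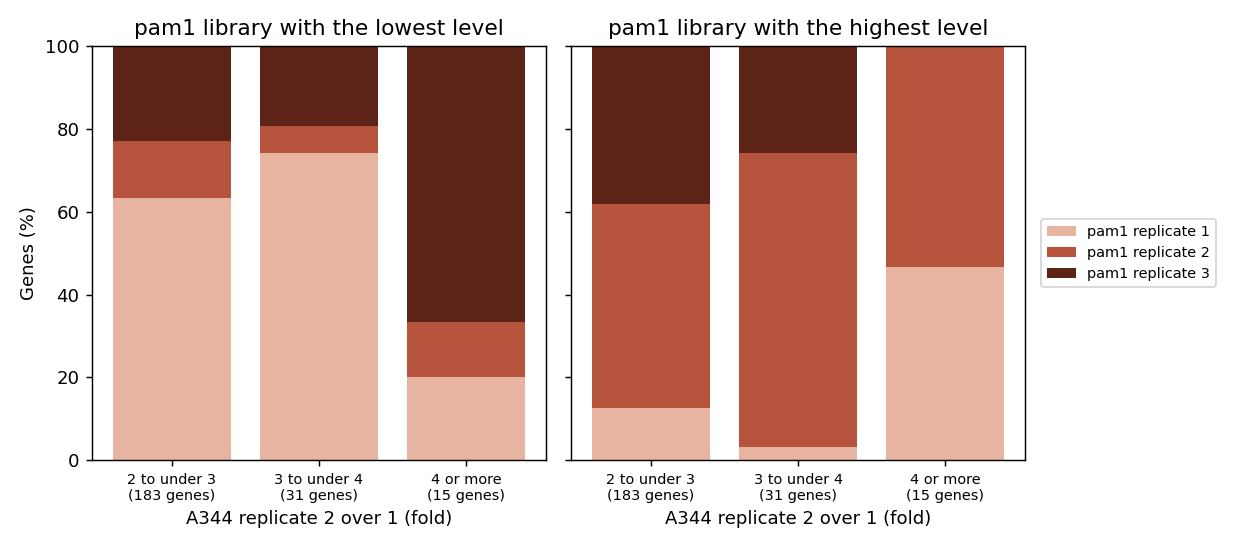
Share of genes (y axis, %) for which each pam1 replicate was the lowest (left) or the highest (right) of the 3 pam1 libraries, by the ratio of A344 replicate 2 over replicate 1 (x axis). In the 15 genes with a ratio of 4 or more, replicate 3 is the lowest in 10 and the highest in 0, while replicate 1 is the lowest in 116 of 183 and 23 of 31 genes at the smaller ratios.

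The *pam1* libraries were first compared with A344 replicate 3 alone, the A344 library that had no part in the choice. All 15 genes were tested in a fit across 19883 rows, and 2 were lower and 1 higher in *pam1*. Of all rows tested, 8.31% were called in either direction, 3.88% lower and 4.43% higher. Zm00001d033268 was lower in *pam1*, at 17.6 ± 5.60 CPM (SD, n = 3) against 63.4 CPM in A344 replicate 3 (log2 fold change −1.89 ± 0.24 SE, edgeR adjusted p = 0.000176). Zm00001d045247 was lower too, at 14.7 ± 4.89 CPM (SD, n = 3) against 38.8 CPM (log2 fold change −1.39 ± 0.28 SE, edgeR adjusted p = 0.00563). Zm00001d007827 was higher in *pam1*, at 19.5 ± 1.94 CPM (SD, n = 3) against 5.73 CPM (log2 fold change 1.72 ± 0.36 SE, edgeR adjusted p = 0.00799).

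The remaining 12 genes did not pass, and their *pam1* means lay on both sides of A344 replicate 3. Over the 15 genes the median log2 fold change was −0.15, against 0.02 over all rows tested. Every *pam1* library was above A344 replicate 3 in 3 genes and below it in 5. The shares of all rows with these orders were not computed, so nothing is read from these counts. This fit rests on 1 A344 library, which is assumed to vary like the *pam1* libraries, and under DESeq2 the calls of Zm00001d045247 (log2 −1.44, adjusted p = 0.177) and Zm00001d007827 (log2 1.71, adjusted p = 0.215) were lost with log2 values as large. With 1 *pam1* library left out, other genes of the 15 passed as well, so the set of calls was not stable. The log2 values then ran from −2.16 to −1.72 for Zm00001d033268 and from −1.63 to −1.17 for Zm00001d045247. For Zm00001d007827 they ran from 1.66 to 1.81.

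With all 6 libraries, 2 of the 15 genes were lower in *pam1* and 0 higher by edgeR's quasi-likelihood test. Over all rows tested 14.9% were called, 6.68% lower and 8.18% higher, so the share of the 15 genes was near that background. The rule used A344 replicates 1 and 2, so nothing is read from the count, and the values of single genes in this fit are a description. DESeq2 called 1 of the 15, beside 1895 of 24906 rows. By unadjusted edgeR p, 4 of the 15 were under 0.05. The share over all rows was not computed, so nothing is read from that count either. Zm00001d033268 averaged 17.6 ± 5.60 CPM in mutant and 84.8 ± 68.7 CPM in wild-type libraries (SD, n = 3 each), with an edgeR log2 value of −2.28 ± 0.50 SE. Zm00001d045247 averaged 14.7 ± 4.89 CPM in mutant and 46.3 ± 31.4 CPM in wild-type libraries (SD, n = 3 each), with an edgeR log2 value of −1.63 ± 0.43 SE.

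Without A344 replicate 2 the log2 value was −1.42 for Zm00001d033268 and −0.97 for Zm00001d045247, against −2.28 and −1.63 with it. Zm00001d045247 was no longer called without *pam1* replicate 1, under DESeq2 or under limma voom, with log2 values of −1.40, −1.70 and −1.40. The authors' deposited table called 1 of the 15 genes, Zm00001d033268, and 7.61% of all rows that have an adjusted p there. In the authors' deposited table its log2 value, which runs as A344 over *pam1*, was 2.32 ± 0.74 SE.

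Which A344 library was in the fit set the direction for most of the genes. Without A344 replicate 2 the A344 side keeps replicate 1, which was chosen for being low, and without replicate 1 it keeps replicate 2, which was chosen for being high. Both shifts are therefore built into the choice, and the values are given with no test. Without A344 replicate 2 the log2 fold changes furthest above 0 were those of Zm00001d007827 (1.95), Zm00001d029526 (1.43), Zm00001d025912 (1.18) and Zm00001d010231 (1.15). These are the genes whose *pam1* libraries lay nearest to A344 replicate 2. Without A344 replicate 1 those furthest below 0 were Zm00001d033268 (−2.72), Zm00001d022081 (−2.11), Zm00001d045247 (−2.02) and Zm00001d021345 (−1.87), whose *pam1* libraries lay nearest to or below A344 replicate 1. The sign of the log2 fold change differed between these fits in 10 of the 15 genes.

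**Figure D5:**
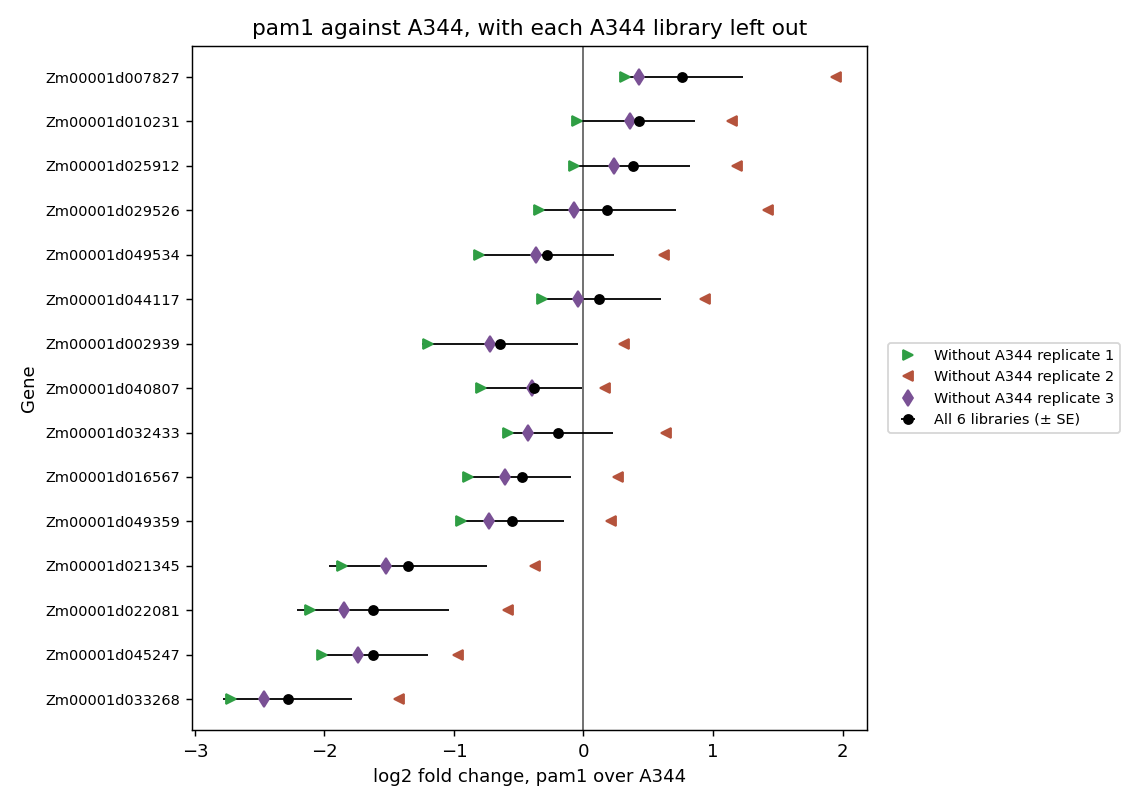
Log2 fold change of pam1 over A344 for each gene with all 6 libraries (black points, bars of 1 SE) and with each A344 library left out (coloured symbols). Leaving out A344 replicate 2 moves every gene to the right and leaving out A344 replicate 1 moves every gene to the left, and 10 of 15 genes change sign between them.

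The standard errors show the same spread. In the fit of 6 libraries they were 0.37 to 0.61 on the log2 scale for the 15 genes (median 0.47), against a median of 0.20 over all rows tested. The gap that chose the genes is part of that spread.

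The 15 genes were scattered along the count table. The nearest pair was 150 rows apart. Of the 60 rows within 2 places of a gene, 31 reached 5 CPM in some library, and their median ratio of A344 replicate 2 over 1 was 1.013. None of the 60 reached a ratio of 4. Of the 31, 2 had a ratio of at least 2, namely Zm00001d049532 (2.05) near Zm00001d049534, and Zm00001d045244 (2.41) next to Zm00001d045247.

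The rows that the table names include the triggers of phased small RNAs, which appear in maize anthers at set times. The miR2118 family acts before meiosis and the miR2275 family during it, and the counts here are of total RNA at their genes. MIR2275 rows together had 24, 41 and 27 counts in *pam1* replicates 1 to 3, against 7, 1 and 6 in A344 replicates 1 to 3. MIR2118 rows had 1, 3 and 4 counts in *pam1*, against 9, 2 and 3 in A344. A344 replicate 2 was the lowest A344 library for both families. For MIR2275 it had 0.521 CPM (exact 95% interval 0.0132 to 2.90), against 2.89 CPM in replicate 1 (1.16 to 5.96) and 2.64 CPM in replicate 3 (0.970 to 5.75). These intervals are wide at such low counts, and the libraries were not compared by a test. No order of the A344 libraries is therefore read from them. Whether the A344 libraries differed in stage was not tested.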

How the data were processed

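The authors deposited a table of whole-number counts per row for 6 RNA-seq libraries. Per the labels, libraries were made from total RNA with a directional kit. The submitters' processing notes list Bowtie2 2.4.5, DESeq2, MACS2 and STAR, with no role for any. Neither they nor the headers say which program counted the reads or how it used strand, so reads shared by similar or overlapping genes may sit in either row. The authors' deposited table of A344 against *pam1* holds, per the file headers, a mean signal, log2 fold changes with standard errors, a Wald score and p-values. The deposited peak list was not used here.

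The genes, lists and tests were chosen with earlier results of these data known. CPM used column totals and a pseudocount of 1. Tests were two-sided quasi-likelihood tests in edgeR 4.0.16 (R 4.3.3), as *pam1* minus A344, after TMM scaling and filterByExpr with its defaults. Calls had a Benjamini-Hochberg adjusted p under 0.05 over all rows tested. The steps were tested on simulated data. Alternatives used DESeq2 1.42.0 and limma 3.58.1. Same-numbered *pam1* and A344 libraries deviated together weakly from their group means, with correlations of 0.13, 0.12 and 0.13 over 18491 rows for replicates 1, 2 and 3. Pairs with unlike numbers had correlations from −0.15 to 0.02. Centring on the group means ties all of these values to each other. The main tests were nonetheless unpaired. A fit with the replicate number as a block was run only as an alternative. Named genes were all members, which include those picked by size of ratio, level, place of A344 replicate 3 and call. No marker list fixed by symbol could be applied beyond the miRNA rows. Intervals of counts are exact 95% Poisson intervals, covering counting error only. Selection, intervals and plots were made in Python 3.11.15 with pandas 2.3.3, scipy 1.17.1, matplotlib 3.10.9 and numpy 2.4.6.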

Additional observations from a re-analysis of the deposited data

How the results depend on the processing

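The rule gave 46 genes at a fold limit of 3, 3 at a limit of 8 and 7 with at least 50 CPM in A344 replicate 2. A344 replicate 3 lay between in 100% of genes under every alternative run for it. With no limit on *pam1*, which gave 17 genes, its place was not computed, and there it would not hold for all. Zm00001d053304, which that setting adds, had 0.441 CPM in A344 replicate 3, below 1.24 CPM in A344 replicate 1. The share of genes lowest in *pam1* replicate 1, 20% as reported, was 56.5% at a fold limit of 3 and 0% at a limit of 8. A limit of 3 adds the genes already described.

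With 6 libraries, the number of the 15 genes called was 1 at adjusted p under 0.01, 1 under DESeq2, 1 under limma voom and 7 with no low-count filter (1 higher and 6 lower). Over all rows these settings called 1432 of 18491, 1895 of 24906, 2698 of 18491 and 4073 of 36964. Leaving out 1 library gave 1 to 6, the lowest without *pam1* replicate 1 and the highest without A344 replicate 2. Over all rows the fit without *pam1* replicate 1 called 1768 of 19135. The fit without A344 replicate 2 called 2917 of 19327. The counts of the 15 genes rest on A344 libraries used to choose them. With the replicate block there were 3, beside 3352 of 18491 rows. The block changed no call among the 15 but that of Zm00001d022081 (log2 −1.59 with the block and −1.63 without). Against A344 replicate 3 alone, the number was 1 under DESeq2, 5 with no low-count filter, and 4 to 5 with a *pam1* library left out. Over all rows, too, the share called against A344 replicate 3 alone differed between these settings. Nothing is therefore read from those counts of the 15 genes. The cause of the filter and tool differences was not tested.

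Under limma voom the sign turned for Zm00001d032433 (0.11), Zm00001d002939 (0.057) and Zm00001d049534 (0.27), none of them called. With 1 library left out, log2 fold changes of genes whose sign turned ran from −0.34 to 1.43 for Zm00001d029526, −0.59 to 0.64 for Zm00001d032433, −0.071 to 1.18 for Zm00001d025912, −1.20 to 0.32 for Zm00001d002939, −0.79 to 0.17 for Zm00001d040807, −0.41 to 0.94 for Zm00001d044117, −0.94 to 0.21 for Zm00001d049359, −0.81 to 0.62 for Zm00001d049534, −0.89 to 0.26 for Zm00001d016567 and −0.051 to 1.15 for Zm00001d010231. Against A344 replicate 3 alone the ranges were −0.066 to 0.75 for Zm00001d044117, −0.29 to 0.047 for Zm00001d049359 and −0.31 to 0.12 for Zm00001d049534. Of 285 alternative values of single genes, 239 kept direction and call, 6 lost a call, 20 gained one and 20 turned sign. Depth limits the low end, where A344 replicate 1 had as few as 5 counts.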

Other observations

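Outside the 15 genes, 2 further genes had the 4-fold gap and 20 CPM in A344 replicate 2 but missed the *pam1* limit. Zm00001d053304 had 1.97, 1.16 and 0.999 CPM in *pam1* replicates 1 to 3, against 1.24, 50.04 and 0.441 CPM in A344 replicates 1 to 3. Unlike the 15 genes, it was high in A344 replicate 2 alone, on 96 counts, and A344 replicate 3 was the lowest of the 6 libraries. The authors' deposited table gives it a log2 value of 3.71 (A344 over *pam1*) and no p-value. Zm00001d032491 had 2.46, 5.78 and 4.99 CPM in *pam1*, against 4.13, 23.5 and 11.5 CPM in A344, with A344 replicate 3 in the middle.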
